A study of Mus musculus with 15 samples.

Results

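T cell receptor genes are assembled from gene segments, and this account follows the RNA of those segments in mouse tumours. The members are the named variable (V), joining (J) and constant (C) segments of the alpha, beta, gamma and delta loci (Tra, Trb, Trg and Trd) with at least 1 count in any library that has counts. Of 254 segments so named in the count table, 114 had a count and 140 had none. The table lists 53465 genes in all. Every named segment lies in its receptor locus, with Trb on chromosome 6, Trg on chromosome 13, and Tra and Trd together on chromosome 14.

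A developing T cell joins 1 V segment to 1 J segment, with a D segment between them in the beta and delta chains, and the joined exon is spliced to a C segment. T cell clones thus differ in the V and J segments they joined and in the junction between them, while many clones use the same C segments. Most T cells carry an alpha and a beta chain, and a smaller class carries a gamma and a delta chain. Both kinds of receptor sit at the cell surface with the CD3 proteins and are known for recognising antigen on infected and transformed cells.

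The libraries are RNA from tumours of the Lewis lung carcinoma line LLC1. KD tumours came from sgLkb1 cells, whose genotype label is LKB1 knockdown, and WT tumours from wild-type cells. Radiation with an immune checkpoint inhibitor is called RI, the inhibitor alone ICI, and radiation alone RT. The groups are KD RI, KD ICI, WT RI and WT ICI, with counts for 3 libraries each, and KD RT, with 3 libraries in a separate table that gives FPKM (fragments per kilobase of transcript, scaled to depth) only. No group is labelled untreated, and no WT library is labelled RT. KD ICI 3 carries CON in its description although it is labelled ICI, and KD ICI 1 and 2 share the naming H80. Descriptions also hold the namings JIAN, TUI and SG793, whose meaning the labels leave unsaid. JIAN marks KD RI 2, KD ICI 1, all WT RI libraries and WT ICI 2. TUI marks KD ICI 2, WT ICI 1 and WT ICI 3, and SG793 marks KD RI 1, KD RI 3 and KD ICI 3. SG793 thus occurs in KD alone and TUI in ICI libraries alone, so the naming is partly confounded with genotype and treatment. The guide belongs to the tumour line, whereas T cells in a tumour come from the host. Stk11, which encodes LKB1, was at 139, 111 and 127 CPM (counts scaled to the depth of each library) in KD RI and 115, 128 and 151 CPM in KD ICI, against 140, 140 and 147 CPM in WT RI and 168, 152 and 171 CPM in WT ICI. By edgeR its log2 fold change in KD, with its standard error, was -0.18±0.12 under RI (adjusted p = 0.304) and -0.31±0.11 under ICI (adjusted p = 0.0556), neither past the threshold of 0.05. On average it fell by 0.25±0.08 (adjusted p = 0.0283).

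The count libraries hold 17289313 to 23471917 counts, and the 114 segments hold 2520 counts over all 12 of them. Low counts limit everything that follows: 77 segments had at most 4 counts in all, 28 had 1 count, and 43 were seen in 1 library only. The labels do not say that samples are separate animals, so the spread behind each p-value is that between these samples and may be technical. In a bulk tumour sample fewer T cells and less receptor RNA per T cell cannot be told apart. Skeletal muscle markers (Acta1 and Ckm summed) stood at 376 CPM in WT RI 3 and 430 CPM in WT ICI 2, against at most 45.3 CPM in each other library. Those libraries had the fewest segment counts in their groups, and the part of muscle tissue in that was not tested.

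The segments on which the results turn are printed here from the GENCODE M21 transcripts (GRCm38), 5′ to 3′ on the coding strand. Trbc1 (chr6:41538218-41539881) and Trbc2 (chr6:41546730-41548352) are the alternative constant segments of the beta chain, and they are shown because reads must be told apart between them. Over 518 coding bases they differ at 23 (95.6% identical), and the longest run that they share is 259 bases. The stretch from coding base 459 to 518 holds 11 of the differences, in capitals.
Trbc1: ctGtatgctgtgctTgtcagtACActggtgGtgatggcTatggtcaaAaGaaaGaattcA
Trbc2: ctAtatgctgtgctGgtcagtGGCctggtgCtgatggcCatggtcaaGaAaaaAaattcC
A read inside a shared run cannot be placed on either segment alone, and the authors' rule for such reads is not given here. Values of Trbc1 and Trbc2 are therefore uncertain in their split, and in their sum if such reads were dropped.

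J segments are shown because 5 of them carry most of the joining counts and because those printed are just 48 to 53 bases long. Capitals mark the motif TTTGGNNNNGG or TTCGGNNNNGG, which encodes the conserved phenylalanine and glycine at the start of the last framework strand. The segments are Trbj1-1 (chr6:41533864-41533911), Trbj1-3 (chr6:41534323-41534376), Trbj1-5 (chr6:41535084-41535133), Trbj1-4 (chr6:41534811-41534861), Trbj1-6 (chr6:41535554-41535606) and, from the second cluster, Trbj2-1 (chr6:41542754-41542803), which was added after its values were seen.
Trbj1-1: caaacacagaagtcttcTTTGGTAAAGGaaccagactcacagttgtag
Trbj1-3: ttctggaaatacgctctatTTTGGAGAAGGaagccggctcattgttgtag
Trbj1-5: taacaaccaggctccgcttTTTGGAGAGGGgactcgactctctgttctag
Trbj1-4: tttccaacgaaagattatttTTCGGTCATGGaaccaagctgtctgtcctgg
Trbj1-6: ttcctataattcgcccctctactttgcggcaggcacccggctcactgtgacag
Trbj2-1: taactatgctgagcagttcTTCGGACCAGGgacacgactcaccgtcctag
Searched on the coding strand alone, 56 of 80 annotated J segments hold this motif (70%), as do 28 of the 38 J segments with a count. Trbj1-6 has neither spelling.

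V segments are shown by their last 45 bases, the end that joins to D or J, for 7 of those named by their counts. Capitals mark TGTGC, the codon of the conserved second cysteine with the first bases of the codon after it. The segments are Trbv13-1 (chr6:41116007-41116468), Trbv13-2 (chr6:41121396-41121832), Trbv13-3 (chr6:41130147-41130585), Trbv15 (chr6:41141188-41141658), Trbv16 (chr6:41151740-41152230), Trav7-3 (chr14:53443249-53443839) and Trdv4 (chr14:54074905-54075515).
Trbv13-1: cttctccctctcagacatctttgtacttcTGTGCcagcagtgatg
Trbv13-2: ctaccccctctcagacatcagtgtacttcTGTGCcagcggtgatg
Trbv13-3: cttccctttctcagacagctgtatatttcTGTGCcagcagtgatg
Trbv15: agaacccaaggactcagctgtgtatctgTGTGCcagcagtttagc
Trbv16: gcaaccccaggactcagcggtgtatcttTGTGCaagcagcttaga
Trav7-3: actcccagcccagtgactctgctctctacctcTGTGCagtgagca
Trdv4: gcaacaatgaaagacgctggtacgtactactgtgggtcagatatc
On the coding strand, 133 of 170 annotated V segments (78.2%) and 59 of the 72 with a count hold TGTGC in these last 45 bases. The Trbv13 segments are 86.1% to 90.6% identical to each other, and Trbv15 and Trbv16 71.5%. No Trb V member shares a run of 100 bases with another annotated segment. Of the 46 Tra V members 33 do, and these hold 110 of the 142 Tra V counts, so single Tra V segments are uncertain where near-identical copies could split their reads.

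KD tumours held few receptor segment counts and WT tumours many. The sum over all segments was 12, 17 and 16 counts in KD RI and 15, 33 and 50 in KD ICI, against 507, 400 and 308 counts in WT RI and 406, 300 and 456 in WT ICI. Each KD library lay below each WT library. On the TMM scale (CPM scaled by edgeR's trimmed mean of M values) the sums averaged 0.792±0.114 CPM in KD RI and 19.2±4.06 in WT RI (SD, n = 3 each), a 24.3-fold lower level in KD. Under ICI they averaged 1.70±0.810 CPM in KD and 16.6±4.05 in WT (SD, n = 3 each), 9.76-fold lower in KD. On a log2 scale these ratios of means are -4.60 under RI and -3.29 under ICI, against -4.45 and -3.55 within the libraries of the naming JIAN. Without WT RI 3 the value under RI was -4.76, without WT ICI 2 that under ICI was -3.48, and without KD ICI 3 it was -3.73. The labels do not say whether KD ICI 1 and 2, with the naming H80, are separate animals, and with them summed into 1 the value under ICI was -3.09. No test was made on the sums, because the members were chosen with earlier results of these data known.

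**Figure D1:**
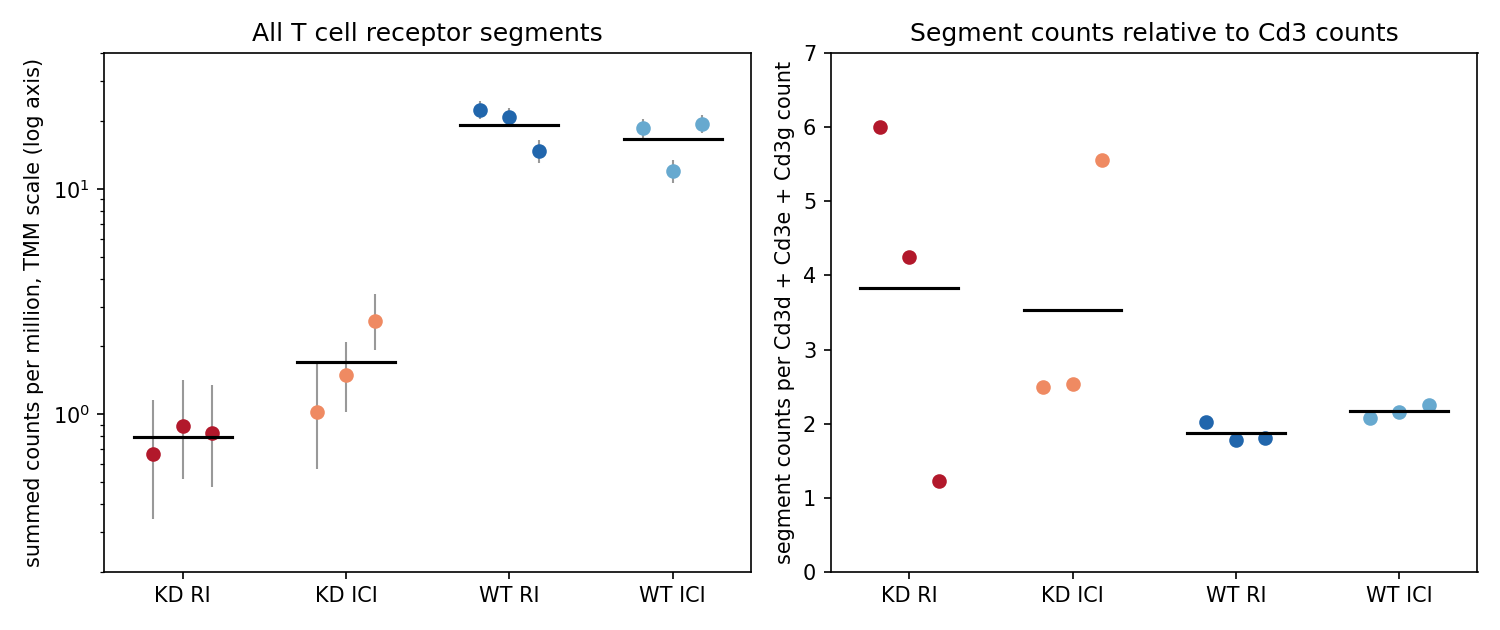
Left, summed CPM of all T cell receptor segments (TMM scale, log axis) in each library, with points for libraries, bars for exact 95% Poisson intervals (counting error only) and black lines for group means. Right, segment counts per count of Cd3d, Cd3e and Cd3g together, on a linear axis. The 6 KD libraries lie between 0.664 and 2.60 CPM, below the 6 WT libraries at 11.96 to 22.4 CPM, while the ratio to Cd3 counts is 1.23 to 6 in KD and 1.78 to 2.26 in WT.

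Relative to the CD3 genes, which encode the signalling chains of every T cell receptor complex, segment counts were less far apart between genotypes than the sums themselves. Libraries held 6, 4.25 and 1.23 segment counts per Cd3 count in KD RI and 2.5, 2.54 and 5.56 in KD ICI, against 2.03, 1.78 and 1.81 in WT RI and 2.08, 2.16 and 2.26 in WT ICI. The KD ratios rest on 19 Cd3 counts in KD RI and 28 in KD ICI, against 645 in WT RI and 536 in WT ICI. They scatter widely in KD and the groups overlap under RI, whereas under ICI all KD ratios are above all WT ratios.

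Constant segments held the most counts and give the best measured single values. Trbc1 had 3, 6 and 1 counts in KD RI and 6, 8 and 18 in KD ICI, against 137, 92 and 61 counts in WT RI and 90, 51 and 112 in WT ICI. Trbc2 had 2, 1 and 5 counts in KD RI and 1, 11 and 10 in KD ICI, against 119, 75 and 90 counts in WT RI and 85, 60 and 100 in WT ICI. Trac, the constant segment of the alpha chain (chromosome 14, 54220521 to 54224206), had 1, 1 and 8 counts in KD RI and 3, 5 and 6 in KD ICI, against 86, 108 and 57 counts in WT RI and 58, 83 and 82 in WT ICI. For each of these 3 segments every KD library was below every WT library, and they are the only members seen in all 12 libraries.

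Just 4 members (Trbc1, Trbc2, Trac and Trbv13-1) passed the filter on low counts, which kept 16617 genes, and they passed through their WT counts. A segment kept that way had to be high in WT, so its call in this fit is a description and gives no independent support. Each was tested by the quasi-likelihood F-test of edgeR, with p-values adjusted over all genes tested by the Benjamini-Hochberg method and a threshold of 0.05. Values below are log2 fold changes with standard errors. Under RI all 3 constant segments fell in KD, at -4.65±0.58 for Trbc1 (adjusted p = 0.000146), -4.93±0.56 for Trbc2 (adjusted p = 7.24e-05) and -4.47±0.55 for Trac (adjusted p = 0.000126). Under ICI they fell as well, at -2.66±0.50 for Trbc1 (adjusted p = 0.00214), -3.19±0.49 for Trbc2 (adjusted p = 0.000669) and -3.63±0.52 for Trac (adjusted p = 0.000474). Averaged over both treatments the changes were -3.65±0.38 for Trbc1 (adjusted p = 1.71e-05), -4.06±0.37 for Trbc2 (adjusted p = 6.24e-06) and -4.05±0.38 for Trac (adjusted p = 7.03e-06). Of all genes tested, 12.1% were lower in KD at this threshold under RI, 14.9% under ICI and 20.5% on average. A median gene changed by 0.02 under RI and 0.00 under ICI on the log2 scale. A fit with no filter keeps every gene with a count, and a count in WT alone is enough for a segment to be a member. For RI this edgeR fit gave -4.68±0.53 for Trbc1 (adjusted p = 8.69e-07), -4.96±0.52 for Trbc2 (adjusted p = 6.62e-08) and -4.50±0.51 for Trac (adjusted p = 2.64e-07). For ICI it gave -2.71±0.46 for Trbc1 (adjusted p = 0.000206), -3.23±0.45 for Trbc2 (adjusted p = 1.03e-05) and -3.68±0.49 for Trac (adjusted p = 4.86e-06).

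Per length, FPKM of the constant segments ran in the order Trbc2, Trbc1, Trac and Trdc in both WT groups. In WT RI the means were 6.71±1.11 FPKM for Trbc2, 5.56±2.00 for Trbc1, 4.03±1.49 for Trac and 0.0507±0.00900 for Trdc (SD, n = 3). In WT ICI they were 5.38±1.49 FPKM for Trbc2, 4.51±1.75 for Trbc1, 3.21±0.453 for Trac and 0.0979±0.0197 for Trdc (SD, n = 3). The ranges of mean ± SD overlap between Trbc2 and Trbc1 and between Trbc1 and Trac in both WT groups, and that of Trdc lies below the others.

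Trbv13-1, a beta V segment, was the V segment with most counts and the single V segment past the filter. It had 0, 0 and 1 counts in KD RI and 0, 1 and 0 in KD ICI, against 20, 12 and 25 counts in WT RI and 2, 7 and 10 in WT ICI. Each WT library was above each KD library. It passed the filter through WT, chiefly WT RI, and in a fit of the ICI libraries alone it did not pass. Its log2 fold change in KD, given as a description for that reason, was -5.25±0.88 under RI (adjusted p = 0.00117 with edgeR) and -3.52±1.01 under ICI (adjusted p = 0.0194 with edgeR). The fit with no filter gave -5.28±0.94 under RI (adjusted p = 0.000215 with edgeR) and -3.57±1.04 under ICI (adjusted p = 0.0183 with edgeR). The filtered ICI call was lost without WT ICI 3 (-3.06, adjusted p = 0.0712), without KD ICI 1 (-3.19, adjusted p = 0.0624) and within the JIAN libraries (-5.53, adjusted p = 0.0851).

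The other beta V segments named by their counts were near or at 0 in KD. Trbv20 had no count in any KD library, against 6, 6 and 4 counts in WT RI and 13, 2 and 4 in WT ICI. That makes it at least 4.79-fold lower in KD under RI and at least 5.04-fold under ICI when 3 counts are allowed over the KD group. These folds and those below take the WT counts as exact, without their counting error or spread between libraries. Trbv16 had 1, 2 and 0 counts in KD RI and none in KD ICI, against 7, 4 and 8 counts in WT RI and 10, 19 and 16 in WT ICI, at least 11.9-fold lower in KD under ICI. Trbv15 had no count in KD RI and 0, 0 and 1 in KD ICI, against 16, 13 and 0 counts in WT RI and 0, 2 and 1 in WT ICI, at least 8.68-fold lower in KD under RI although WT RI 3 had none. Trbv14 had no KD count, against 11, 5 and 1 counts in WT RI and 3, 1 and 3 in WT ICI. Trbv13-3 had no KD count either, against 3, 2 and 1 counts in WT RI and 4, 3 and 3 in WT ICI. Trbv13-2 had 1 count over all KD libraries (KD ICI 3), against 9, 1 and 2 counts in WT RI and 10, 5 and 5 in WT ICI. Over these segments the KD libraries hold 0 to 2 counts each, so differences among KD libraries were not detectable at this depth. Trbv17 tied with Trbv13-3 at 16 counts for the last of the 10 places, which went by name, and it had no count in KD RI and 0, 0 and 1 in KD ICI, against 3, 3 and 0 counts in WT RI and 8, 1 and 0 in WT ICI.

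**Figure D2:**
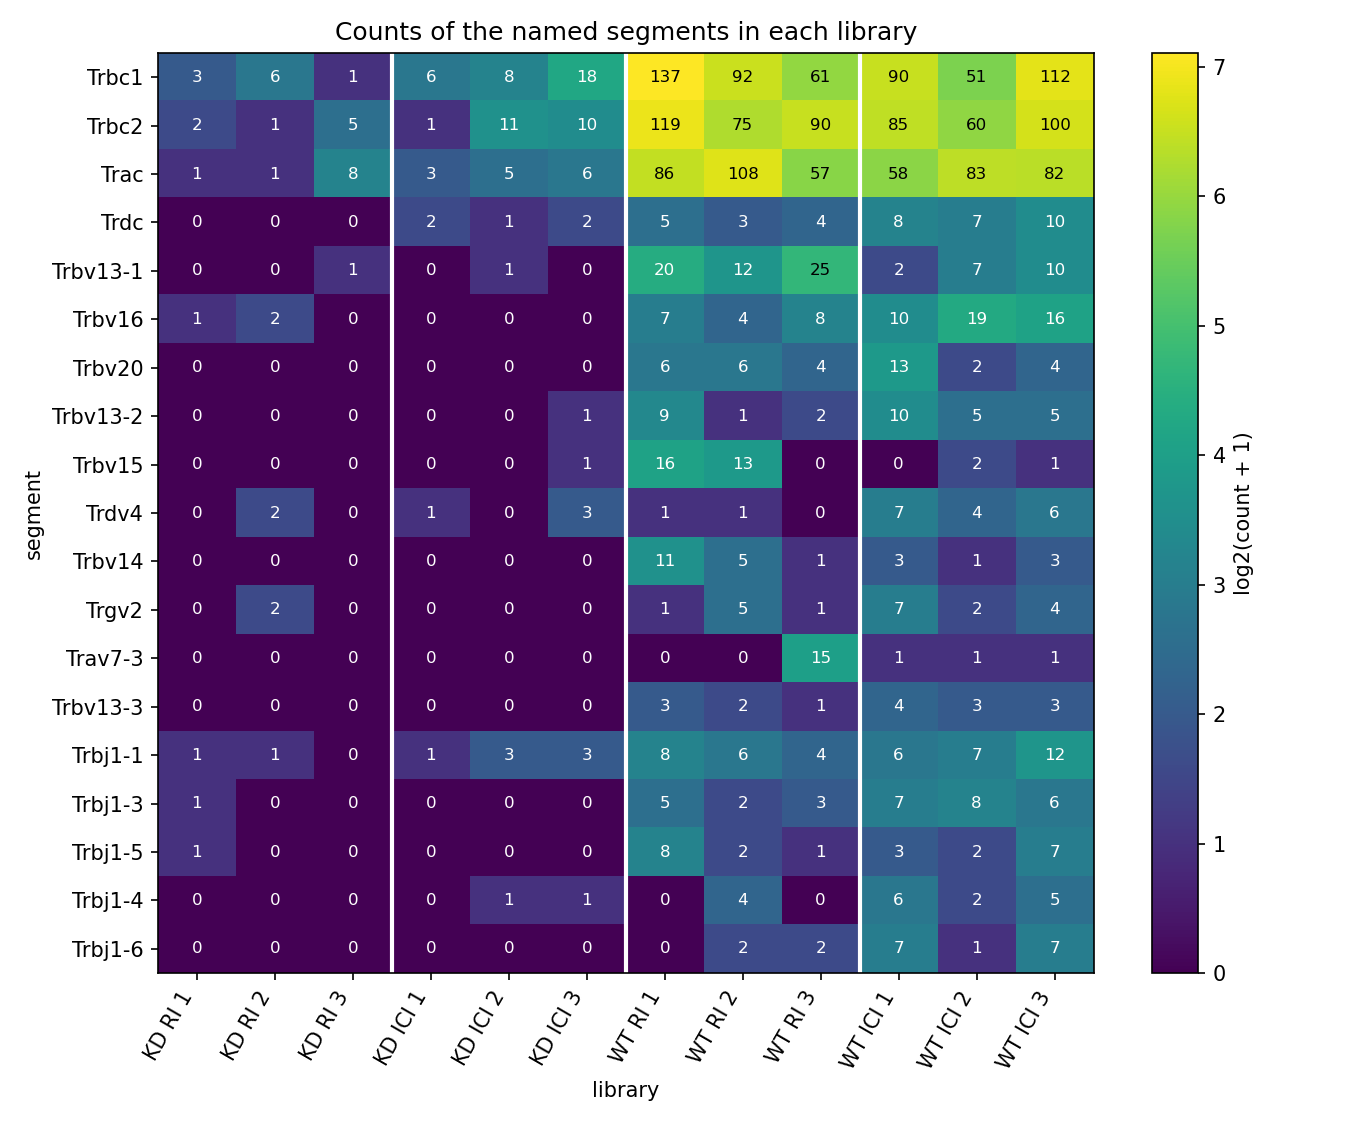
Counts of the segments named by rule (rows) in each of the 12 count libraries (columns), with the count printed in each cell and colour for log2(count + 1). Constant segments fill the top rows. Trbc1 has 1 to 18 counts in KD libraries and 51 to 137 in WT libraries.

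When no gene was filtered out, all 114 members could be tested in a fit of 31771 genes. Of these, 10 were lower in KD under RI (8.77% of members, against 6.24% of all genes), 11 under ICI (9.65%, against 7.77%) and 21 on average (18.4%, against 11.4%), and none was higher. Under each treatment these shares are near those of all genes, in a list where most members have at most 4 counts. Since 87 members were seen in WT alone and 1 in KD alone, a higher call in KD was hardly possible for most of them. DESeq2, whose own filter kept 9 members under RI, 11 under ICI and 19 on average, called 7, 7 and 12 of them lower, against 12%, 13.7% and 17% of all genes it kept. Nothing is read from those counts, since that filter too keeps members by their level. In the edgeR fit with no filter, the same 6 members were called lower under both treatments, 3 of them the constant segments. The share of all genes called lower under both was not computed, so nothing is read from that count either.

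The number of different segments seen went with the number of segment counts. A library showed 9, 8 and 5 segments with at least 1 count in KD RI and 7, 10 and 14 in KD ICI, against 48, 53 and 36 in WT RI and 57, 41 and 57 in WT ICI. Over all libraries 113 segments were seen in WT and 27 in KD, with 26 in both, 1 in KD alone and 87 in WT alone. At an equal 12 segment counts per library, the smallest number in any library, the expected number of segments was 9, 6.82 and 4.25 in KD RI and 6.17, 5.84 and 6.26 in KD ICI, against 6.46, 6.42 and 6.19 in WT RI and 7.54, 6.66 and 6.84 in WT ICI. At that depth KD libraries lay on both sides of the WT libraries under RI. Under ICI each KD library was still below each WT library, with a difference of means, KD minus WT, of -0.93 segments.

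**Figure D3:**
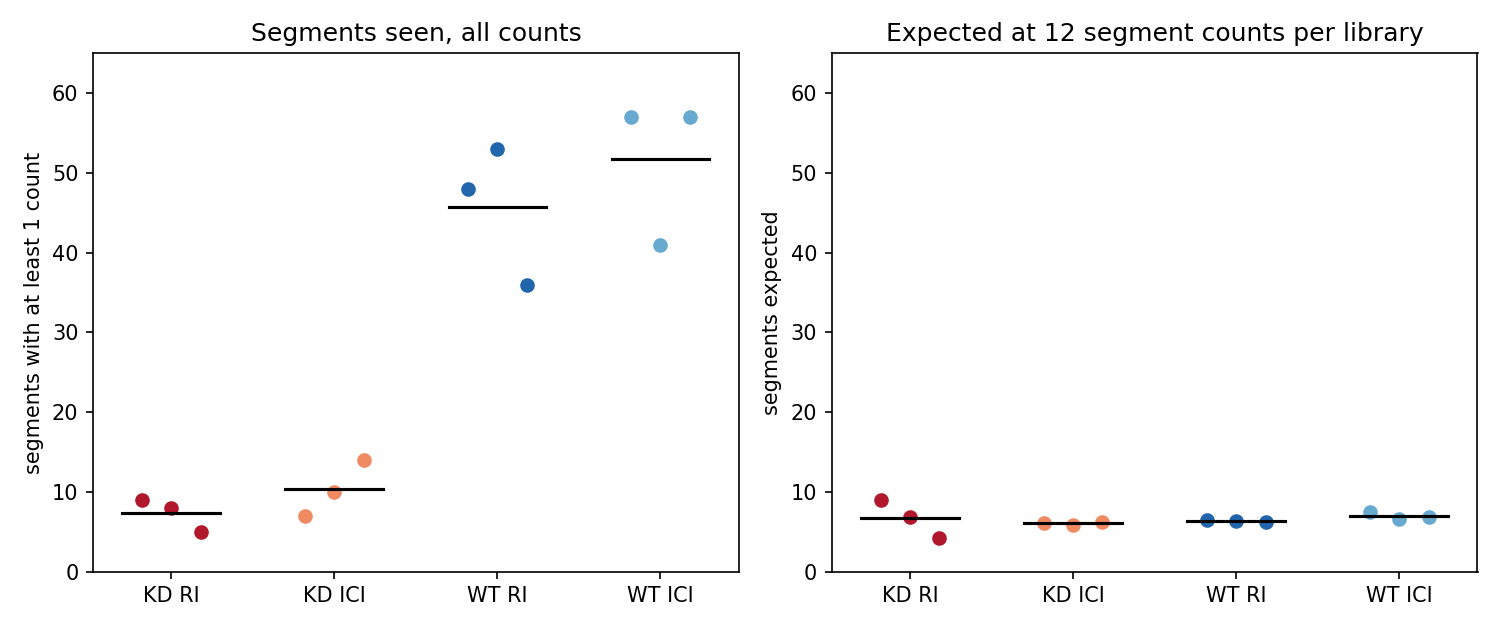
Number of T cell receptor segments in each library (points) and group means (lines). Left, segments with at least 1 count, 5 to 14 in KD libraries and 36 to 57 in WT libraries. Right, the number expected when each library is reduced to 12 segment counts, 4.25 to 9 in KD and 6.19 to 7.54 in WT, on the same axis.

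C segments took most of the counts in every group. Summed over the libraries of a group, they made up 62.2% of 45 counts in KD RI and 74.5% of 98 in KD ICI, against 68.9% of 1215 in WT RI and 64.2% of 1162 in WT ICI. V segments took 26.7% in KD RI and 16.3% in KD ICI, against 23.8% in WT RI and 24.0% in WT ICI. The 95% exact binomial intervals of the KD shares of C segments, 46.5% to 76.2% in KD RI and 64.7% to 82.8% in KD ICI, cover counting error only. That of KD RI contains the WT RI share, and that of KD ICI has its lower end just above the WT ICI share.

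Most joining counts came from the first beta cluster, Trbj1, in each group. Trbj1 segments had 5 counts in KD RI and 9 in KD ICI, against 59 in WT RI and 98 in WT ICI, while Trbj2 segments had none in either KD group, against 13 in WT RI and 13 in WT ICI. Trbj1-1, the J segment with most counts, had 1, 1 and 0 counts in KD RI and 1, 3 and 3 in KD ICI, against 8, 6 and 4 in WT RI and 6, 7 and 12 in WT ICI. Trbj1-3 had 1, 0 and 0 counts in KD RI and none in KD ICI, against 5, 2 and 3 in WT RI and 7, 8 and 6 in WT ICI. Trbj1-5 had 1 KD count (KD RI 1), against 8, 2 and 1 in WT RI and 3, 2 and 7 in WT ICI. Both Trbj1-4 and Trbj1-6 were lower in count in WT RI (0, 4 and 0 for Trbj1-4 and 0, 2 and 2 for Trbj1-6) than in WT ICI (6, 2 and 5 for Trbj1-4 and 7, 1 and 7 for Trbj1-6), with overlap between the treatments. How reads that run from such a short segment into a V or C segment were assigned is not given here, and J counts depend on it.

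Adding radiation to the inhibitor left the summed level in WT tumours within its spread. The sums were 22.4, 20.7 and 14.6 CPM in WT RI and 18.6, 11.96 and 19.3 CPM in WT ICI, and the groups overlapped, with a ratio of means of 1.16 (log2 0.21, or 0.37 without WT RI 3 and 0.02 without WT ICI 2). Within the JIAN libraries, where WT ICI 2 alone stands for WT ICI, the log2 ratio was 0.69. In KD tumours the sums were 0.664, 0.883 and 0.830 CPM in KD RI and 1.02, 1.49 and 2.60 CPM in KD ICI. These did not overlap, and the mean was 2.15-fold lower in KD RI (log2 ratio -1.10). Without KD ICI 3, the library with CON in its description, that log2 ratio was -0.66, within the JIAN libraries, 1 in each KD group, it was -0.21, and with the H80 libraries summed into 1 it was -1.30.

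No member passed the test for RI against ICI in WT, in KD, or for the difference between them. In that test Trbc1, Trbc2 and Trac had log2 fold changes of 0.33±0.43, 0.35±0.40 and 0.36±0.41 in WT (adjusted p = 0.853, 0.827 and 0.828 with edgeR). In KD they were -1.66±0.65, -1.39±0.65 and -0.49±0.68 (adjusted p = 0.277, 0.348 and 0.762 with edgeR), and the differences, KD minus WT, were -1.99±0.78, -1.74±0.77 and -0.84±0.79 (adjusted p = 0.282, 0.345 and 0.681 with edgeR). Of all genes tested 0.283% passed in either direction in WT, 0.0843% in KD and 0.367% for the difference, or 0.242%, 0.305% and 0.463% without a filter. At an unadjusted p below 0.05 with no filter, 3 members were lower and 3 higher in WT, 3 lower and 1 higher in KD, and 2 lower and 2 higher for the difference. These make up 5.26%, 3.51% and 3.51% of members, below the 6.67%, 8.69% and 8.18% of all genes in that fit. DESeq2 called none of the 3 members it kept, against 2.69% of all genes in WT, 2.87% in KD and 3.9% for the difference.

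Among the members with a large step between treatments in WT, beta V segments ran in both directions. Trbv13-1 was higher in each WT RI library than in each WT ICI library, at 0.882, 0.622 and 1.19 CPM in WT RI and 0.0915, 0.279 and 0.424 CPM in WT ICI (log2 fold change 1.73±0.57, adjusted p = 0.258 with edgeR). Trbv15 had a log2 fold change of 3.28±1.14 without a filter (adjusted p = 0.419 with edgeR). Its high values are those of WT RI 1 and 2. Trbv16 went the other way, with a log2 fold change of -1.07±0.63 without a filter (adjusted p = 0.831 with edgeR) for the counts given above, whose groups did not overlap. None of these passed the threshold.

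**Figure D4:**
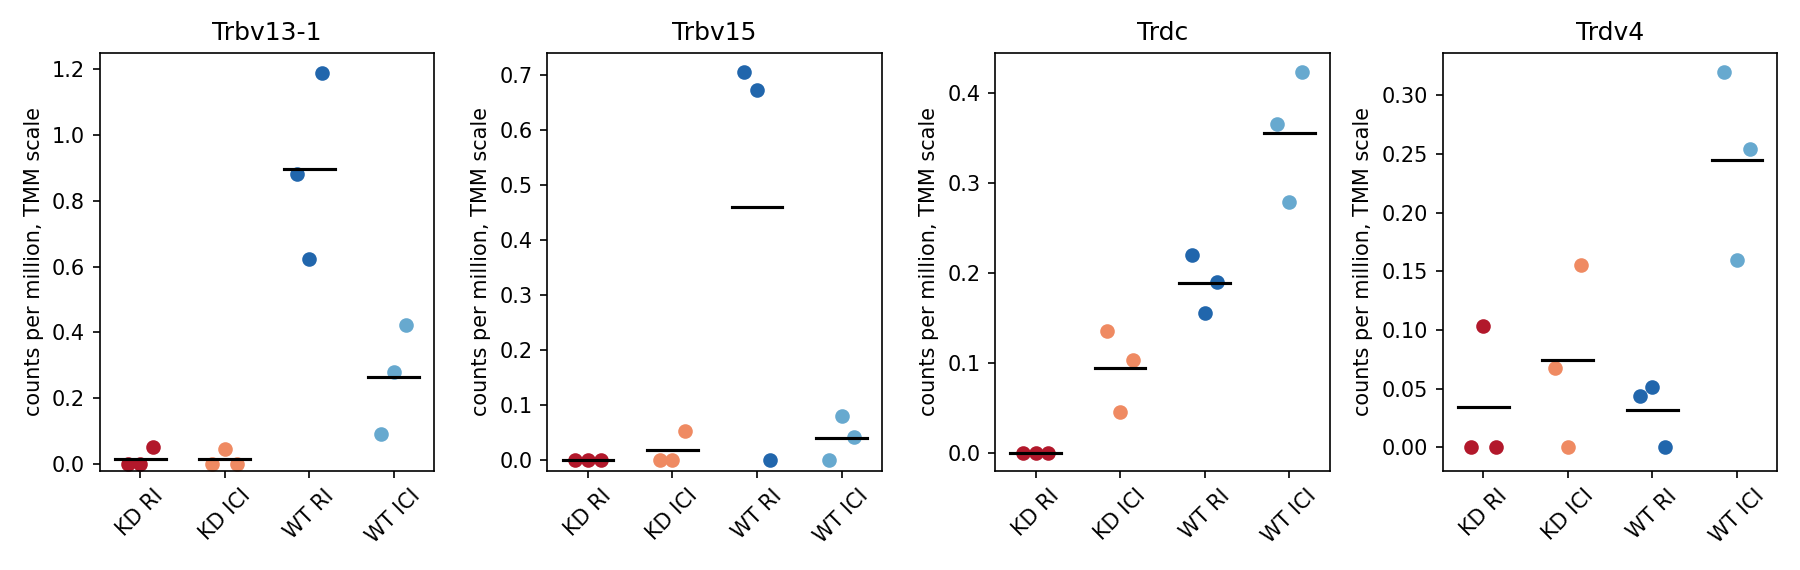
CPM (TMM scale) of Trbv13-1, Trbv15, Trdc and Trdv4 in each library (points) with group means (lines), each segment on its own axis. Trbv13-1 lies at 0.622 to 1.19 CPM in WT RI and 0.0915 to 0.424 CPM in WT ICI, and Trdv4 at 0 to 0.0518 CPM in WT RI and 0.159 to 0.320 CPM in WT ICI.

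Single libraries leaned on different V segments. The leading V segment was Trbv13-1 in WT RI 1 (20 of 121 V counts, 16.5%), Trbv15 in WT RI 2 (13 of 91, 14.3%) and Trbv13-1 in WT RI 3 (25 of 77, 32.5%). It was Trbv20 in WT ICI 1 (13 of 112, 11.6%), and Trbv16 in WT ICI 2 (19 of 71, 26.8%) and WT ICI 3 (16 of 96, 16.7%). Trav7-3, an alpha V segment, had 15 of its 18 counts in WT RI 3, with 0 in the other WT RI libraries and 1 in each WT ICI library. Its near copy Trav7d-3, 99.0% identical over 402 bases, had 3 counts, all in WT RI 3 as well, and was named after its values were seen. In KD libraries no V segment exceeded 3 counts.

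Gamma and delta segments belong to the smaller class of T cells, and in WT tumours delta segments took a smaller share under RI than under ICI. Delta segments made up 1.38%, 1.00% and 1.30% of segment counts in WT RI and 3.69%, 3.67% and 3.51% in WT ICI, with no overlap and, for WT ICI 2 (3.67%), also within the JIAN libraries. No test was made on this share. In counts they were 15 over WT RI and 42 over WT ICI, and the exact 95% intervals of single libraries (0.557% to 2.82% in WT RI 1 and 2.08% to 6.02% in WT ICI 1) overlap. In KD the share was 0%, 11.8% and 0% in KD RI and 20%, 3.03% and 10% in KD ICI, on just 2 and 9 delta counts. Summed delta segments were 6.80-fold lower in KD under RI and 3.54-fold under ICI, against 24.3-fold and 9.76-fold for all segments. Trdc, the delta constant segment (chromosome 14, 54142851 to 54148868), had 0 counts in each KD RI library and 2, 1 and 2 in KD ICI, against 5, 3 and 4 in WT RI and 8, 7 and 10 in WT ICI. With 3 counts allowed over KD RI and the WT RI counts taken as exact, Trdc was at least 3.59-fold lower in KD under RI. Without a filter its log2 fold change for RI against ICI in WT was -0.89±0.72 (adjusted p = 0.831 with edgeR). Trdv4, a delta V segment, had 0, 2 and 0 counts in KD RI and 1, 0 and 3 in KD ICI, against 1, 1 and 0 in WT RI and 7, 4 and 6 in WT ICI. For RI against ICI in WT its log2 fold change was -2.73±1.15 without a filter (adjusted p = 0.608 with edgeR). An annotated antisense gene overlaps each of them, with 1 count at Trdc (Gm43434) and 3 at Trdv4 (Gm30275), and without a stated strand setting such reads cannot be assigned.

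For the gamma locus Trgv2, the only named gamma V segment under this spelling, had 0, 2 and 0 counts in KD RI and none in KD ICI, against 1, 5 and 1 in WT RI and 7, 2 and 4 in WT ICI. Gamma constant segments carry Tcrg names and lie outside the naming rule. They were read separately, with 3 counts over KD RI and 3 over KD ICI, against 39 over WT RI and 59 over WT ICI. Single libraries held 4 to 25 of them in WT RI and 17 to 25 in WT ICI, so the treatments overlapped. All gamma and delta segments of either spelling averaged 1.00 CPM in WT RI and 1.87 CPM in WT ICI, also with overlap. In KD they were 8.29-fold lower under RI and 8.52-fold under ICI. The gamma constant segments alone were 11.6-fold lower in KD under RI and 17.0-fold under ICI, on the few KD counts given above. Cd163l1, which encodes the scavenger receptor SCART1 of gamma delta T cells, had no count in KD, against 0, 3 and 1 counts in WT RI and 26, 5 and 26 in WT ICI. Natural killer cells can carry unrearranged receptor transcripts, and 2 of their 3 listed receptor genes were lower in KD as well. Of all genes tested, 12.1% were lower in KD under RI and 14.9% under ICI. Klrk1, which encodes NKG2D and is also used by T cells, changed by -3.995±0.466 under RI (adjusted p = 8.81e-05 with edgeR) and -2.78±0.41 under ICI (adjusted p = 0.000586 with edgeR). Klrb1c, which encodes NK1.1, changed by -3.33±0.66 under RI (adjusted p = 0.00341 with edgeR) and -2.10±0.60 under ICI (adjusted p = 0.0192 with edgeR). It had 1, 6 and 0 counts in KD RI and 3, 7 and 4 in KD ICI, and passed the filter through its WT counts. Its calls are therefore a description and give no independent support. Ncr1, which encodes NKp46, was at -2.71±0.97 under RI (adjusted p = 0.0667 with edgeR) and -2.30±0.90 under ICI (adjusted p = 0.0711 with edgeR), past the threshold in neither. The part of these cells in the constant segment counts was not tested.

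Other genes of the T cell receptor pathway were lower in KD too. From a list of 20 (co-receptors, CD3 chains, proximal kinases and adaptors, and rearrangement genes), 16 were tested. In KD 15 were lower under RI and 16 under ICI, where 12.1% and 14.9% of all genes tested were lower. None was higher, and the median log2 fold changes were -4.15 under RI and -2.97 under ICI. Many of these 16, such as Cd3d, Cd3e and Cd8b1, were near 0 in KD and passed the filter through their WT counts. Their calls are therefore a description and give no independent support. In RI against ICI none passed in WT or KD at the edgeR threshold, with 3 at an unadjusted p below 0.05 in each, where 11.1% of all genes tested in WT and 14.8% in KD lay. The rearrangement and precursor genes Rag1, Rag2, Dntt and Ptcra, which mark thymocytes, summed to 0.0519 to 0.207 CPM in KD RI and 0 to 0.0519 CPM in KD ICI, against 0.0441 to 0.104 CPM in WT RI and 0.0457 to 0.239 CPM in WT ICI. They are at or near 0 in every group.

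Markers of some other host cells differed between genotypes too, not all of them under both treatments. Macrophage markers (C1qa, C1qb, C1qc and Adgre1 summed) stood at 107 to 125 CPM in KD RI and 93.8 to 208 CPM in KD ICI, against 409 to 497 CPM in WT RI and 530 to 640 CPM in WT ICI. Fibroblast markers (Col1a1, Dcn and Pdgfra) stood at 407 to 742 CPM in KD RI and 333 to 450 CPM in KD ICI, against 199 to 258 CPM in WT RI and 216 to 341 CPM in WT ICI. Neutrophil markers (S100a8, S100a9 and Csf3r) stood at 61.9 to 193 CPM in KD RI and 139 to 489 CPM in KD ICI, against 117 to 122 CPM in WT RI and 27.0 to 64.2 CPM in WT ICI. Endothelial markers (Pecam1 and Cdh5) stood at 68.1 to 112 CPM in KD RI and 80.2 to 141 CPM in KD ICI, against 53.8 to 78.9 CPM in WT RI and 55.6 to 66.4 CPM in WT ICI. Thus macrophage markers lay lower in KD, as the segments did. Neutrophil and endothelial sums lay higher in KD under ICI and overlapped between genotypes under RI. Under RI S100a8, S100a9 and Csf3r did not pass (adjusted p = 0.865, 0.943 and 0.359 with edgeR). Cdh5 rose in KD under RI (1.08±0.25, adjusted p = 0.00943 with edgeR) and ICI (1.17±0.25, adjusted p = 0.00506). Pecam1 passed in neither (adjusted p = 0.165 and 0.522 with edgeR). The fibroblast sum lay higher in KD under RI and overlapped between genotypes under ICI. Its genes did not move together: under RI Dcn rose by 2.39±0.41 on the log2 scale (adjusted p = 0.00213 with edgeR) and Col1a1 by 1.90±0.53 (adjusted p = 0.0284), while Pdgfra was at 0.06±0.32 (adjusted p = 0.917). Under ICI Dcn rose by 1.59±0.40 (adjusted p = 0.0127 with edgeR), while Col1a1 at 0.86±0.52 (adjusted p = 0.235) and Pdgfra at -0.48±0.32 (adjusted p = 0.280) did not pass. The part of tumour make-up in the segment levels was not tested.

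KD tumours with radiation alone also held few segment reads, as far as their separate table shows. There 26 named segments were above 0 in at least 1 of the KD RT libraries 1, 4 and 5, and 24 of these are among the members. Trbc1 stood at 0.321, 0.565 and 0.981 FPKM, Trbc2 at 0.238, 1.24 and 0.303 FPKM, and Trac at 0.897, 0.722 and 0.252 FPKM. Trdc was listed at 0 in 2 of the 3 libraries. Reads implied by the FPKM steps and the segment lengths came to 34, 54 and 33 per library, which is 1.87, 2.90 and 1.73 CPM of the implied totals. In KD RT 5 the value is a lower limit, since 2 of its 10 segments above 0 had no known length and were left out. The 3 libraries are uneven in which constant segment leads. Since the tables were made separately, no test was run between KD RT and the other groups.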

How the data were processed

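RNA-seq tables of tumour libraries were used as the authors deposited them. Per the file headers one table gives the authors' counts and FPKM for 53465 genes in 12 libraries, and a separate one gives FPKM alone for the 3 KD RT libraries. For each of the 28458 genes with a value in 2 libraries or more, the length behind FPKM was the same within 1%, which ties the authors' FPKM to their counts. HISAT2 and the build names GRCm38 and mm10 are given, per the submitters' processing notes, without versions. No counter, annotation or strand setting is given in the sources used here. All 114 members had the same coordinates in GENCODE M21. For 19 members the length behind FPKM exceeds the genomic span, so no FPKM of theirs is compared between genes.

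Groups follow the labels, with 3 samples each. Counts were scaled by TMM and filtered by filterByExpr (minimum count 10, minimum total 15). In edgeR 4.0.16 (R 4.3.3), 12 libraries entered 1 quasi-likelihood fit by group, and 6 contrasts were tested, two-sided. DESeq2 1.42.0 was an alternative. The standard error is the log2 fold change divided by the square root of F. Where a group had no count, 3 counts for the whole group served as its upper limit, and the WT counts were taken as exact. Expected numbers of segments at an equal depth are hypergeometric expectations. Binomial intervals are Clopper-Pearson, Poisson intervals exact, both at 95% and covering counting error only. Reads of KD RT were implied from FPKM, counted as whole within 0.05, after the data were seen. Scripts were tested on simulated data.

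Named with values were all C segments, members past the filter, the 10 V and 5 J segments with most counts (ties by name), the leading V of each locus and the leading segment of each library; others are said to be named after their values were seen. Genes most alike across libraries were left out, since the libraries form separate clusters. Members and lists were chosen with earlier results of these data known. Marker lists of B cells, and of innate lymphocytes other than the natural killer genes given, are not reported here.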

Additional observations from a re-analysis of the deposited data

How the results depend on the processing

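Calls in KD against WT were all in the lower direction in each setting tried for Trbc1, Trbc2, Trac and Trbv13-1. Over 16 results of a single segment and contrast, 311 of 314 recomputed values kept their direction and side of the threshold, and the other 3 are the losses of Trbv13-1 under ICI given above. The number of members called rose with tools and filters that admit more members. Without a filter it was 10 under RI, 11 under ICI and 21 on average, where 6.24%, 7.77% and 11.4% of all genes were called lower, shares near those of the members under each treatment. With DESeq2 it was 7, 7 and 12, where 12%, 13.7% and 17% of all genes were called lower, against 4 each as reported. With 1 library left out it was 4 to 6 under RI, 3 to 5 under ICI and 4 to 6 on average. The share of all genes called in those fits was not computed, so nothing is read from these numbers. RI against ICI gave 0 calls in WT, in KD and for the difference under each alternative. Scaling by library size alone moved the median of all genes by -0.21 for KD against WT under ICI and by -0.07 under RI, and the segments kept their calls.

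Summed levels of V segments alone gave a log2 ratio of -3.85 for KD against WT under ICI and of -0.41 for RI against ICI in KD. Within the JIAN libraries, with 1 ICI library in each genotype, RI against ICI was 0.69 in WT and -0.21 in KD, and the cause was not tested. Leaving out 1 library gave -4.76 to -4.48 for KD against WT under RI, -3.73 to -3.02 under ICI, -1.37 to -0.66 for RI against ICI in KD and 0.02 to 0.37 in WT. Adding the Tcrg and D segments, an alternative chosen after seeing the data, gave -4.58 under RI and -3.26 under ICI.

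The difference in segments seen, KD minus WT, was -38.3 under RI and -41.3 under ICI. At 2 counts or more it was -23.7 under RI and -26.3 under ICI, at 5 or more -9.33 and -10, and at 12 segment counts per library 0.33 under RI and -0.93 under ICI. RI minus ICI in KD was -3, and 0.60 at that depth. Fewer counts are what this alternative itself sets.

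With the replicate number as a block (replicate block) 4 members were called in KD against WT under RI, under ICI and on average, and 0 in the other contrasts. For this fit too the share of all genes was not computed, so nothing is read from the count. The numbers do not pair the samples: deviations of same-numbered libraries correlated at a mean r of 0.00638 over 18 pairs (-0.344 to 0.301), and the best partner of a library had its own number in 3 of 12 cases. Sums per locus and class tested as single features were planned and not run, because a score over chosen members is given no p. For segments at 0, each fold given as a minimum allows 3 counts over the KD group. It leaves out the counting error of WT and its spread between libraries.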
